A study of Mus musculus with 12 samples.

Results

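The corticosteroid receptors, the enzyme that regenerates active corticosterone inside cells and 7 genes that glucocorticoids are known to induce were followed through a mouse model of aortic dissection with and without rapamycin. The 10 genes were found by name among the array's annotated probes: the receptors Nr3c1 and Nr3c2, the enzyme gene Hsd11b1, and the target genes Fkbp5, Tsc22d3, Zbtb16, Sgk1, Mt1, Mt2 and Pdk4. They were represented by 12 of 55675 probes that entered the analysis, and by 10 of 34796 gene names. All 12 probes passed the filter on dim signals. Nr3c1 and Mt1 had 2 probes each and the other genes had 1.

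The aortae came from male C57BL/6J mice aged 11 to 14 weeks, and each of 12 arrays held the RNA of 1 mouse, with 3 mice in each of 4 groups and challenged aortae taken at day 3. The BA challenge joined 150 mg/kg/day of BAPN (beta-aminopropionitrile, an inhibitor of the enzyme that cross-links elastin and collagen) to 1 µg/kg/min of the pressor hormone angiotensin II (AngII), each infused from an osmotic minipump of its own. Rapamycin, the mTOR inhibitor, was given at 2 mg/kg/day by intraperitoneal injection in DMSO. The groups were DMSO alone, rapamycin alone, BA with DMSO (BA + DMSO) and BA with rapamycin (BA + rapamycin). By the treatment labels of 2 groups and the stated rapamycin vehicle of the other 2, all 4 groups thus received DMSO. The titles of the DMSO samples, however, begin with Pre, a word the study uses for mice before the challenge, so the sampling day of this baseline group and how it was dosed are uncertain, and every difference from DMSO below carries that doubt. Whether the unchallenged mice underwent minipump surgery was not stated in the sources used here. The model is a whole stretch of aortic wall from 1 strain and 1 sex, and in such bulk tissue fewer cells of a type and less RNA per cell cannot be told apart.

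Corticosterone, the main glucocorticoid of mice, enters cells and binds the glucocorticoid receptor Nr3c1, which is held ready by the Hsp90 chaperone machinery and then moves to the nucleus to switch genes on or off. The mineralocorticoid receptor Nr3c2 binds corticosterone and aldosterone and reads much the same DNA element. Fkbp5 encodes an immunophilin (FKBP51) that binds rapamycin as well as Hsp90 and lowers the receptor's affinity for hormone, and its own gene is switched on by the receptor. In the vessel wall these receptors are known for their effects on tone, salt handling and inflammation, and induction of Fkbp5, Tsc22d3 and Zbtb16 is a common readout of glucocorticoid exposure in many tissues.

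The DNA side of these targets can be read from the 250 bases before their start sites, in RefSeq promoter windows of build GRCm38.p6. A total of 15 windows matched 8 of the genes, 6 of them for Sgk1 and 3 for Tsc22d3, and no window was used for Nr3c1 or Zbtb16. Every window was searched on both strands, from 250 bases before to 50 bases after the start, for the classical receptor element, written here as the arms AGAACA and TGTTCT with a gap of 3 bases. The full element was found in 3 of 32851 windows (0.00913%), and 1 of these was a window of Sgk1, shown because it is the single full element among the members. It lies at chr10:21993640-21993889 on the plus strand, with the element at positions -189 to -175 in capitals:
Sgk1: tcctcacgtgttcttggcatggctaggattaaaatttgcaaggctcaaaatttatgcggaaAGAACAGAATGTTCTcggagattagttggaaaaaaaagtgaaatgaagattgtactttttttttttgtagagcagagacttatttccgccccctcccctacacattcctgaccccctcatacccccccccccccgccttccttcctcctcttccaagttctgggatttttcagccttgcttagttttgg
The Mt1 and Mt2 windows are shown for their metal response elements, whose core TGCACNC recruits the zinc sensor Mtf1. Mt1 was read at chr8:94178839-94179088 and Mt2 at chr8:94172368-94172617, both on the plus strand, with matches to TGCACNC or to the variant TGCGCNC in capitals on either strand:
Mt1: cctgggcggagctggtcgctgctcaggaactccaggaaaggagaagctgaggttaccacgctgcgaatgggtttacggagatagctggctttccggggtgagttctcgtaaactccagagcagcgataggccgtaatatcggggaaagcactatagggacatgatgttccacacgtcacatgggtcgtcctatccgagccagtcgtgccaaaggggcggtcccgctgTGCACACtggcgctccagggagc
Mt2: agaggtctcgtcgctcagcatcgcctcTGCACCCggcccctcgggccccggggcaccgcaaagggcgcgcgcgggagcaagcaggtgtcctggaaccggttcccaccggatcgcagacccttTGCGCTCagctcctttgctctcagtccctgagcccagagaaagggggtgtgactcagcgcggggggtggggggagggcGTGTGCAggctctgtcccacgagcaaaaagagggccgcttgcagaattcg
Over the whole windows, Mt1 held 2 matches to TGCACNC and 1 to TGCGCNC, and Mt2 held 2 of each. These short motifs are common, present in 12.6% and 15.4% of all windows. The looser element ACANNNTGT, which overlaps the full one, matched in 6.85% of windows and was found in Mt1 at -92 to -84 and in 2 windows of Sgk1. The single arm AGAACA matched in 19.0% of windows and was found 5 times in Sgk1 and 1 time in Tsc22d3. The windows of Fkbp5 and Pdk4 held none of the 5 motifs, which says only that these letters are not in those 300-base stretches.

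**Figure D1:**
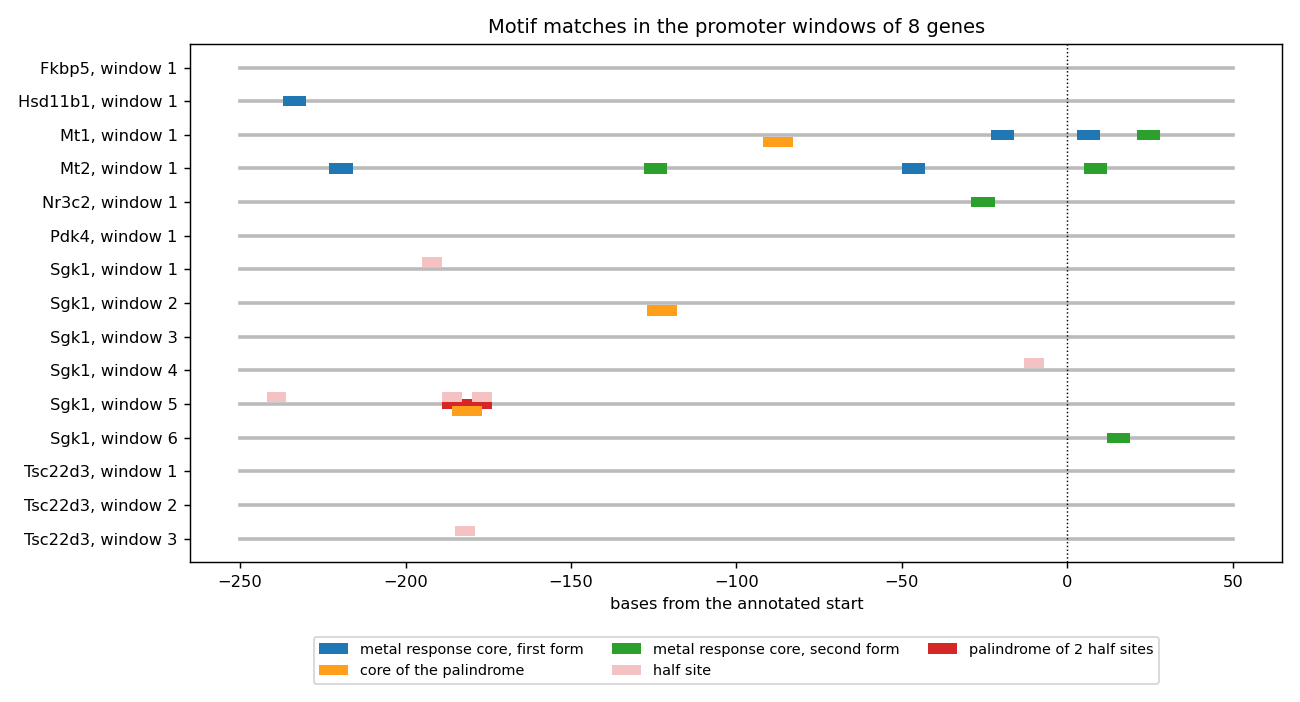
Motif matches in the promoter windows of the member genes, with the position from the start site in bases on the horizontal axis and 1 line per RefSeq window on the vertical axis. Each mark is a match on either strand; the single match to the full receptor element is in a Sgk1 window at -189 to -175, drawn with the shorter motifs that it contains.

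Levels are given as log2 of the processed signal relative to the array's 75th percentile, so that 0 is as bright as that percentile and 1 unit is a doubling of signal; levels are compared only within a probe. Differences were tested with limma, and a gene was called changed at an adjusted p (Benjamini-Hochberg over 27801 probes) under 0.05. The group and the array slide were partly mixed. Slide 1 held the DMSO arrays and rapamycin replicate 1, and slide 2 held rapamycin replicates 2 and 3 and all challenged arrays. The 75th percentile intensity was 221.5 to 337.3 on unchallenged arrays and 74.62 to 246.4 on challenged arrays. Arrays of the same group correlated at 0.9875 to 0.9929 without the challenge and at 0.9124 to 0.9822 with it, BA + DMSO replicates being the least alike.

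Of the 2 receptors, Nr3c1 was lower after the challenge whether or not rapamycin was given. The Nr3c1 probe (mm9 chr18:39571641-39571700, minus strand) read 5.30, 5.45 and 5.24 in the DMSO aortae and 4.25, 4.48 and 4.56 in the BA + DMSO aortae. With rapamycin it read 5.16, 5.01 and 5.08 unchallenged and 4.27, 3.98 and 4.26 challenged. All 6 challenged aortae lay below all 6 unchallenged ones, with SDs of 0.08 to 0.16 within the groups. Challenged values lay wholly below unchallenged ones in 20.1% of all probes without rapamycin and in 36.1% with it. The challenge lowered Nr3c1 by a log2 difference of -0.90 (SE 0.16), a 1.86-fold lower level, with a limma adjusted p of 0.00381. Under rapamycin the difference was -0.91 (SE 0.16), 1.88-fold, adjusted p 0.00208. Both calls held whichever 1 array was left out. With slide as a fixed term the challenge difference was -0.78 and was not called (limma adjusted p 0.403). Nor was it called with array weights (-0.82, adjusted p 0.305). Fitted with only the 2 groups compared it was -0.90 and was not called (adjusted p 0.0558). Within slide 2 alone the difference under rapamycin was -0.87 (adjusted p 0.0507). Rapamycin itself was accompanied by small differences in Nr3c1 of -0.25 without and -0.26 with the challenge, neither of which passed the test (adjusted p 1 and 0.334).

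The second Nr3c1 probe, at chr18:39574183-39574242, disagreed in part. It read 1.83, 1.84 and 1.92 with DMSO and 0.69, 2.22 and 1.18 with BA + DMSO, so that the groups overlapped. With rapamycin it read 1.74, 2.02 and 1.31, and with BA + rapamycin 1.46, 0.96 and 1.63. The challenge differences pointed the same way for it, -0.50 without and -0.34 with rapamycin, but limma called neither (adjusted p 0.334 and 0.441).

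Nr3c2, the mineralocorticoid receptor, was near the detection limit. Its probe (chr8:79766370-79766429, plus strand) was well above background on 8 of 12 arrays, all 6 unchallenged ones and 1 array in each challenged group. The levels were -2.14, -2.04 and -1.75 with DMSO and -1.94, -1.72 and -2.59 with rapamycin. They were -4.60, -2.29 and -3.36 with BA + DMSO and -3.12, -2.86 and -2.15 with BA + rapamycin. All 3 BA + DMSO values lay under the 3 DMSO values, a pattern seen in 20.1% of all probes. The difference of -1.44 (SE 0.49) was not called (limma adjusted p 0.0589). It was called when BA + DMSO replicate 2 was left out (limma adjusted p 0.00666). That array had the highest scaled value of its group for this probe, but the probe was not well above background on it. The difference was also called under quantile normalization (-1.61, adjusted p 0.0469), on the deposited matrix (-1.65, adjusted p 0.0476) and with slide as a random block (-1.48, adjusted p 0.0103). It was smaller without BA + DMSO replicate 1 (-0.85, adjusted p 0.186), had an adjusted p of 0.652 with slide as a fixed term (-1.23), and was near 0 under normexp background correction (-0.099, adjusted p 0.752). Since most challenged arrays gave only an upper bound for this probe, the size of the difference is poorly determined.

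Hsd11b1 encodes the reductase of the endoplasmic reticulum that turns inert 11-dehydrocorticosterone back into corticosterone. Its probe (chr1:195048169-195048228, minus strand, averaged over 10 spots) read 2.62, 1.08 and 0.40 with DMSO, the widest spread in that group among the probes that stand for the 10 genes. It read 2.05, 2.07 and 2.77 with rapamycin, 2.72, 1.46 and 2.84 with BA + DMSO, and 1.27, 1.71 and 1.22 with BA + rapamycin. The 3 BA + rapamycin values lay below the 3 rapamycin values, as in 36.1% of all probes, while the other comparisons overlapped. No comparison was called: the challenge gave 0.98 (SE 0.52, limma adjusted p 0.208), rapamycin alone 0.93 (adjusted p 1), the challenge under rapamycin -0.90 (adjusted p 0.181) and rapamycin under challenge -0.94 (adjusted p 0.307). Without DMSO replicate 1, the highest of its group, the challenge difference was called (1.60, limma adjusted p 0.0384). Without DMSO replicate 3, the lowest, it was 0.49 (adjusted p 0.549). Fitted with only the 2 groups compared, the challenge under rapamycin was called at a difference of -0.90 (adjusted p 0.0188).

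**Figure D2:**
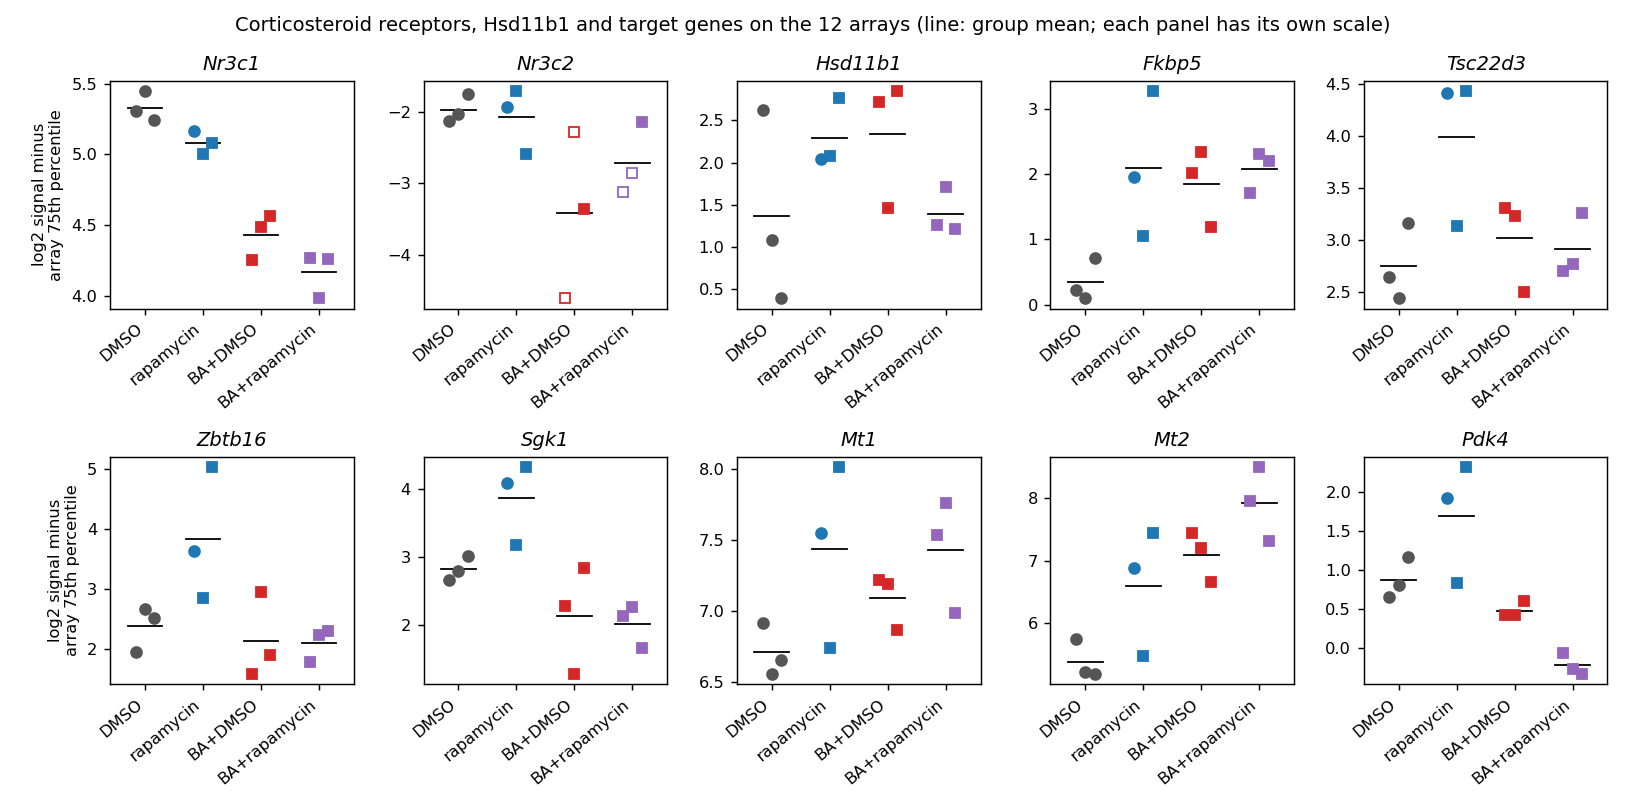
Level of each member gene on each array, with log2 signal relative to the array's 75th percentile on the vertical axis and the 4 groups along the horizontal axis. Circles are arrays of slide 1, squares arrays of slide 2, open symbols arrays where the probe was not well above background, and lines group means; Nr3c1 separates challenged from unchallenged aortae, and the rapamycin mean lies above the DMSO mean for the 7 target genes.

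By their median, the target genes were highest in the aortae of mice given rapamycin without the challenge, although no single gene passed the test across all probes. All 7 had higher means with rapamycin than with DMSO, with differences from 0.72 to 1.75 and a median of 1.22, beside a median of -0.0052 over all probes tested. None was called, and across the array 1 probe in all was called in this comparison (0.0036%). At an unadjusted p under 0.05 limma found 7 of the 7 targets, all higher, whereas 4.27% of all probes passed that limit and 2.41% passed it with a higher level. For 3 targets (Fkbp5, Zbtb16 and Sgk1) every rapamycin value lay above every DMSO value, a pattern seen in 10.8% of all probes. Genes that answer to the same signal do not vary independently, so these counts describe 3 mice against 3 and are not 7 separate results.

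Fkbp5 (chr17:28536060-28536119, minus strand) read 0.23, 0.10 and 0.71 with DMSO and 1.96, 1.06 and 3.27 with rapamycin. It stayed high with the challenge, at 2.01, 2.35 and 1.19 in BA + DMSO aortae and 1.72, 2.31 and 2.21 in BA + rapamycin aortae. All 9 treated aortae thus lay above the 3 DMSO aortae, and the 3 treated groups overlapped one another. The rapamycin difference was 1.75 (SE 0.48), a 3.36-fold higher mean, with an unadjusted p of 0.00405 and an adjusted p of 0.704 by limma.

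Tsc22d3, which encodes the anti-inflammatory leucine zipper protein GILZ, was read at chrX:137074094-137074153 (minus strand). The levels were 2.64, 2.44 and 3.16 with DMSO and 4.42, 3.13 and 4.43 with rapamycin. With the challenge they were 3.31, 3.23 and 2.50, and with both 2.70, 2.77 and 3.26. Rapamycin replicates 1 and 3 stood above all other arrays, and replicate 2 lay within the range of the other groups. The rapamycin difference was 1.25 (SE 0.37, limma unadjusted p 0.00617, adjusted p 0.797).

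Zbtb16 encodes the zinc finger repressor PLZF, and its probe lies at chr9:48462419-48462478 (minus strand). It read 1.94, 2.68 and 2.52 with DMSO against 3.63, 2.85 and 5.03 with rapamycin. It read 1.59, 2.94 and 1.89 with BA + DMSO and 1.78, 2.23 and 2.31 with BA + rapamycin. The rapamycin values overlapped those of BA + DMSO and lay above the other 2 groups. The rapamycin difference was 1.46 (SE 0.50, limma unadjusted p 0.0143, adjusted p 0.982).

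Sgk1 encodes a kinase that raises sodium transport and is known to be phosphorylated by mTOR complex 2, a complex less sensitive to rapamycin than mTOR complex 1. Its probe (chr10:21719507-21719566, plus strand) read 2.67, 2.79 and 3.01 with DMSO and 4.08, 3.17 and 4.32 with rapamycin. After the challenge the levels were 2.28, 1.28 and 2.84, and after both treatments 2.13, 2.26 and 1.66. The rapamycin aortae were the 3 highest of the 12. The rapamycin difference was 1.04 (SE 0.39, limma unadjusted p 0.0219, adjusted p 1).

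Pdk4 encodes a kinase that shuts off pyruvate dehydrogenase and so shifts cells from glucose to fat as fuel. Its probe (chr6:5433441-5433500, minus strand) read 0.66, 0.81 and 1.17 with DMSO and 1.92, 0.84 and 2.32 with rapamycin. It read 0.42, 0.42 and 0.60 with BA + DMSO and -0.06, -0.27 and -0.33 with BA + rapamycin. The 2 challenged groups lay below both unchallenged groups, and BA + rapamycin lay lowest of all with no overlap with any other group. Rapamycin alone gave a difference of 0.82 (SE 0.32, limma unadjusted p 0.0256, adjusted p 1).

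Mt1 and Mt2 encode metallothioneins, small cysteine-rich proteins that bind zinc and copper and are induced by both metals and glucocorticoids. Mt2 (chr8:96697371-96697430, plus strand) read 5.74, 5.21 and 5.19 with DMSO and 6.88, 5.47 and 7.45 with rapamycin. It read 7.44, 7.20 and 6.65 with BA + DMSO and 7.96, 8.50 and 7.32 with BA + rapamycin. Every challenged aorta lay above every DMSO aorta for this gene, and the rapamycin group spanned the gap between them. Mt1 (chr8:96704165-96704224, plus strand), its neighbour on the chromosome, read 6.92, 6.55 and 6.65 with DMSO and 7.55, 6.74 and 8.01 with rapamycin. It read 7.22, 7.19 and 6.86 with BA + DMSO and 7.54, 7.76 and 6.99 with BA + rapamycin. In 3 of 4 groups the 2 metallothionein genes ordered the 3 mice in the same way. Rapamycin alone gave 1.22 (SE 0.47) for Mt2 and 0.72 (SE 0.31) for Mt1, with limma unadjusted p of 0.0240 and 0.0384 and an adjusted p of 1 for both.

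A second Mt1 probe at chr8:96703844-96703903, annotated only to an Ensembl transcript, was far more variable. It read -1.10, -1.32 and 0.97 with DMSO and 2.72, 0.18 and 1.61 with rapamycin. With BA + DMSO it read 0.93, -1.30 and -0.60, and with BA + rapamycin -0.52, -0.07 and -0.90. Its rapamycin difference was 1.99 (adjusted p 1), and under rapamycin its challenge difference was -1.999 (SE 0.76, adjusted p 0.0552), where the other Mt1 probe gave about 0.

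**Figure D3:**
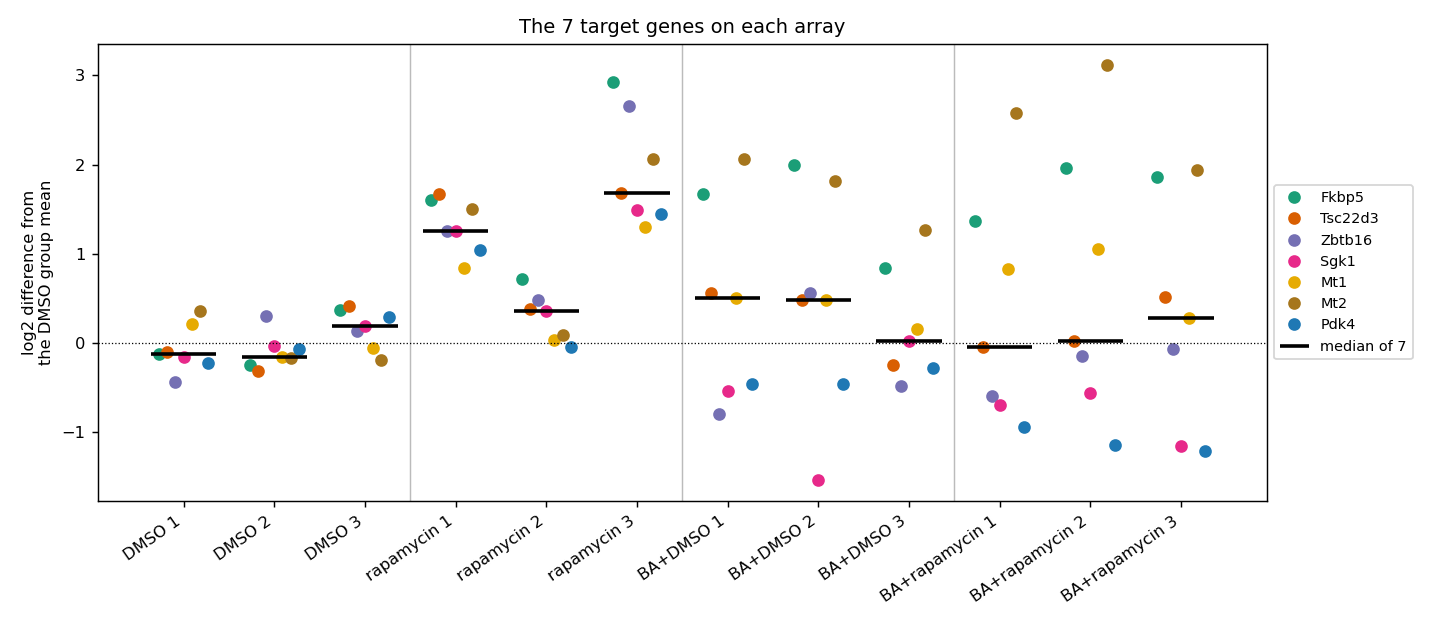
Each of the 7 target genes on each array as the log2 difference from the DMSO mean, arrays along the horizontal axis, with the median of the 7 as a bar across each array. The medians are 1.26, 0.354 and 1.68 in the rapamycin aortae and between -0.154 and 0.508 in the other 9.

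The target gene levels were uneven among the 3 rapamycin mice, and the unevenness was shared by all 7 targets. Replicate 3 was the highest and replicate 2 the lowest of the rapamycin group for 7 of 7 targets. The median difference of the targets from the DMSO mean was 1.26 in replicate 1, 0.354 in replicate 2 and 1.68 in replicate 3. The DMSO aortae themselves had medians of -0.12, -0.154 and 0.187. The 9 adipocyte markers tested had the same order in these mice, with medians from the DMSO mean of 0.1538, -0.9787 and 0.7291 in rapamycin replicates 1, 2 and 3, and their part in the target values was not tested. With 1 rapamycin array on slide 1, the values within that slide are those of replicate 1 against DMSO, 0.84 (Mt1) to 1.67 (Tsc22d3) for the 7 targets, with no spread of their own. Leaving out any 1 array left all 7 differences above 0, from a lowest value of 0.43 (Mt1) to a highest of 2.27 (Fkbp5).

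The BA challenge without rapamycin split the targets. Fkbp5 and Mt2 rose and the others did not pass the test. Of the 10 genes, 3 were called (2 higher, 1 lower), beside 20.5% of all probes called in this comparison, 9.65% higher and 10.8% lower. The median difference of the 7 targets was 0.27 and that of all probes -0.045. Mt2 rose by 1.72 (SE 0.47), 3.29-fold, with a limma adjusted p of 0.0258. Leaving out DMSO replicate 2, DMSO replicate 3 or BA + DMSO replicate 1 ended that call, the adjusted p reaching 0.0962, with differences between 1.54 and 1.94 over all 12 arrays left out in turn. Fkbp5 rose by 1.50 (SE 0.48, 95% confidence interval 0.44 to 2.57), 2.84-fold, at an adjusted p of 0.0489. This call is marginal: it was lost when any of 9 arrays was left out. These were each DMSO array, each BA + rapamycin array, rapamycin replicate 1 and BA + DMSO replicates 1 and 2. Over all 12 arrays left out in turn the limma adjusted p ranged from 0.0190 to 0.158 and the difference from 1.26 to 1.83. Of 27 alternatives, left-out arrays included, 20 ended the call. Among them were the deposited matrix (1.58, adjusted p 0.0515), quantile normalization (1.55, 0.0525) and scaling over detected probes (1.57, 0.0505). It was also lost under normexp background correction (1.18, adjusted p 0.0567) and with brightness as a covariate (1.07, adjusted p 0.252).

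For the remaining targets the challenge differences were not called. Sgk1 gave -0.69 (SE 0.39, limma adjusted p 0.232), Pdk4 -0.40 (adjusted p 0.397) and Mt1 0.38 (SE 0.31, adjusted p 0.407). Over single arrays left out Sgk1 ranged from -1.04 to -0.26 and was never called (lowest limma adjusted p 0.0519). Pdk4 ranged from -0.51 to -0.25. Pdk4 nevertheless had every BA + DMSO value below every DMSO value, a pattern seen in 20.1% of all probes. Tsc22d3 and Zbtb16 gave values between -0.24 and 0.27 with overlapping groups. The calls for Mt2 and Fkbp5 were also lost with blocks taken from the sample titles, Mt2 at an adjusted p of 0.0625 with the title number and 0.0924 with the title date, and Fkbp5 at 0.0943 and 0.0808. No slide held both DMSO and BA + DMSO arrays. With slide as a fixed term, estimated through the rapamycin group, Mt2 gave 2.14 (adjusted p 0.417) and Fkbp5 1.29 (adjusted p 0.633), and none of the 10 genes was called, where 15 of all 27801 probes (0.054%) were.

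The same challenge given under rapamycin gave the most changes, and most of them were downward. Of the 10 genes, 6 were called: Nr3c1, Tsc22d3, Zbtb16, Sgk1 and Pdk4 lower and Mt2 higher. Across the array 41.7% of probes were called, 18.9% higher and 22.9% lower, so a call is common here. The target median was -1.09 and the all-probe median -0.085. Pdk4 fell by 1.92 (SE 0.32), 3.78-fold, at a limma adjusted p of 0.00169. Sgk1 fell by 1.84 (SE 0.39), 3.58-fold, at an adjusted p of 0.00512. For both, all 3 BA + rapamycin aortae lay below all 3 rapamycin aortae, a pattern seen in 36.1% of all probes. Both calls held whichever array was left out.

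Zbtb16 fell by 1.73 at a limma adjusted p of 0.0198, a 3.32-fold lower level. Its groups did not overlap, again the pattern of 36.1% of all probes. Without rapamycin replicate 3 (-1.14) or BA + rapamycin replicate 1 (-1.57) that call was lost, the adjusted p reaching 0.0709 by limma. The Zbtb16 difference ranged from -2.23 to -1.14 over single arrays left out. Tsc22d3 fell by 1.09 (SE 0.37) at an adjusted p of 0.0367, with overlapping groups because rapamycin replicate 2 was low. Its call was lost without DMSO replicate 1, rapamycin replicate 1 or 3, or BA + rapamycin replicate 1 or 2, the difference ranging from -1.52 to -0.87. Mt2 went the other way, rising by 1.33 (SE 0.47), 2.52-fold, at an adjusted p of 0.0404, with overlapping groups. That call was lost without any DMSO array, rapamycin replicate 1 or 2, or BA + rapamycin replicate 1 or 2, the difference ranging from 0.76 to 1.76. The Mt2 call was also lost on the deposited matrix (0.77, adjusted p 0.197), under quantile normalization (0.81, adjusted p 0.194) and under normexp background correction (0.88, adjusted p 0.0848). Tsc22d3 was lost on the deposited matrix (-0.92, adjusted p 0.0819), under quantile normalization (-0.93, adjusted p 0.0804) and with scaling over detected probes (-0.90, adjusted p 0.0883).

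Fkbp5 and Mt1 gave differences near 0 between the rapamycin and BA + rapamycin groups, -0.02 (SE 0.48, limma adjusted p 0.980) and -0.005 (SE 0.31, adjusted p 0.991), whose sign turned under several other settings. Within slide 2, which holds 2 rapamycin and 3 BA + rapamycin arrays, the differences were -1.80 for Pdk4 (called, adjusted p 0.0338), -1.73 for Sgk1 (adjusted p 0.0597) and -1.84 for Zbtb16 (adjusted p 0.0858). For Tsc22d3 the value within the slide was -0.87 (adjusted p 0.180) and for Mt2 1.47 (adjusted p 0.116). The BA + rapamycin arrays were also the dimmest group, with 75th percentile intensities of 74.62 to 109.3 against 257.4 to 337.3 for rapamycin. With that brightness as a covariate none of the 10 genes was called, and the share of all probes called dropped from 41.7% to 6.42%. The differences were then -2.27 for Zbtb16, -1.61 for Tsc22d3, -1.67 for Pdk4, -0.73 for Nr3c1, -0.72 for Sgk1 and 0.91 for Mt2. With the date in the sample titles as a random block the calls for Zbtb16 (-1.43, adjusted p 0.0752), Tsc22d3 (-1.05, adjusted p 0.0818) and Mt2 (1.02, adjusted p 0.163) were lost and Hsd11b1 was called (-1.56, adjusted p 0.0442).

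**Figure D4:**
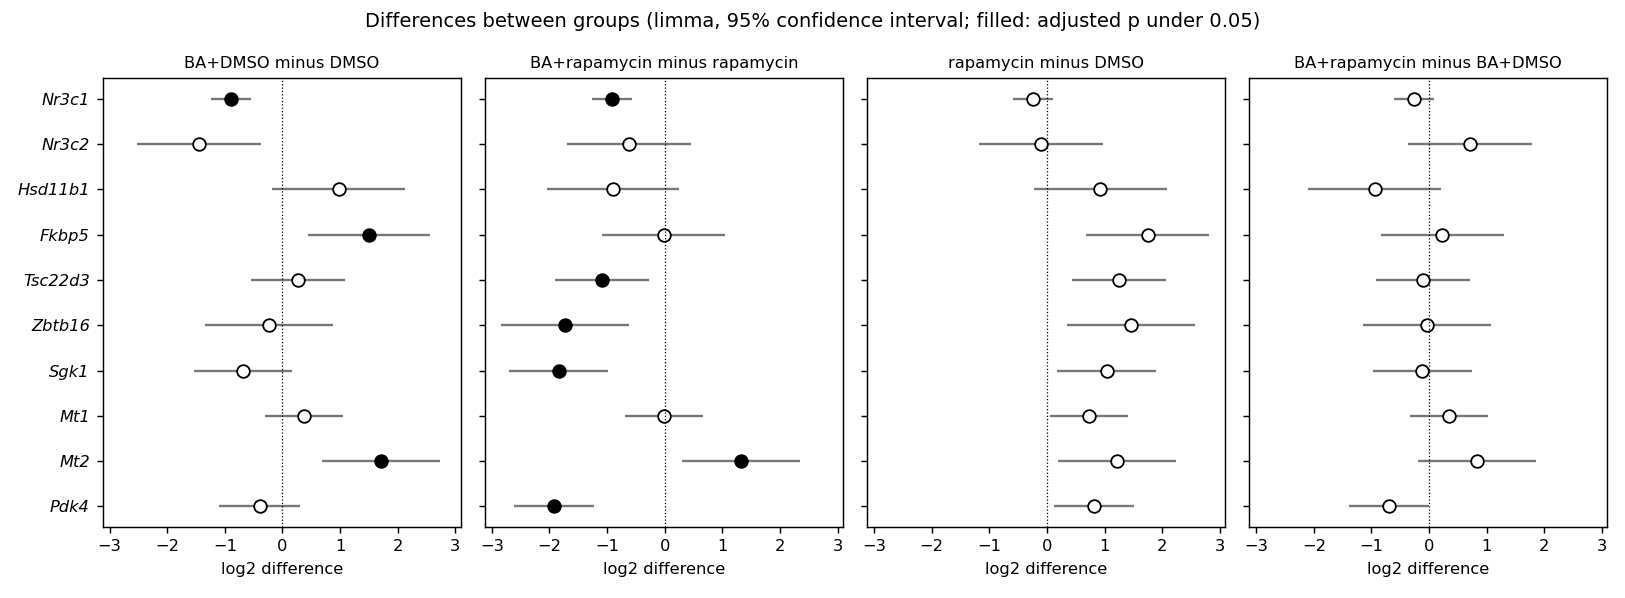
Log2 difference of each member gene in the 4 pairwise comparisons, with 95% confidence intervals from limma as bars and filled symbols for genes called at an adjusted p under 0.05. Pdk4, Sgk1, Zbtb16 and Tsc22d3 lie above 0 for rapamycin alone and below 0 for the challenge under rapamycin, and Nr3c1 lies near -0.9 in both challenge comparisons.

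In challenged mice, adding rapamycin gave no call among the 10 genes, beside 0.281% of all probes. The target median was -0.033, with values from -0.70 (Pdk4) to 0.83 (Mt2), and the all-probe median was -0.0096. Pdk4 was the one gene at an unadjusted p under 0.05, with -0.70 (SE 0.32, limma unadjusted p 0.0484, adjusted p 0.246). Its groups did not overlap, a pattern seen in this direction in 7.57% of all probes. The difference for Mt2 was 0.83 (adjusted p 0.311). Leaving out BA + DMSO replicate 2 brought the number of called genes from 0 to 1 (Nr3c2, 1.27, adjusted p 0.0344, near background in the challenged groups), and the share of all probes called from 0.281% to 39.5%, so the counts in this comparison depend on that array.

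Whether rapamycin's differences themselves differed between challenged and unchallenged mice was tested as an interaction, which for each gene is rapamycin under challenge minus rapamycin alone. All 7 targets had a negative interaction, with a median of -1.35 beside -0.033 over all probes. No probe on the array was called (0%) by limma with adjustment, while 6.12% of probes passed an unadjusted p of 0.05. Without BA + DMSO replicate 2 the interaction called 2933 of 28239 probes (10.4%), and still 0 of the 10 genes. The interaction was -1.52 for Pdk4 (SE 0.45, limma unadjusted p 0.00599, adjusted p 0.633), -1.52 for Fkbp5 (unadjusted p 0.0480) and -1.35 for Tsc22d3 (unadjusted p 0.0253), both with an adjusted p of 0.737. For Zbtb16 and Sgk1 it was -1.50 (unadjusted p 0.0595) and -1.15 (unadjusted p 0.0597). The comparisons share groups, since the rapamycin arrays enter the rapamycin comparison, the challenge under rapamycin and the interaction, so opposite signs in the first 2 of these are in part built in.

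Other genes known to be induced by glucocorticoids were also mostly higher in the rapamycin aortae, by smaller amounts. The list of 30 such genes outside the members was written with earlier results of these data known, so it gives no separate support. Of the 30 genes, 29 were tested, and 26 of the 29 had a higher mean with rapamycin alone, with a median difference of 0.48. Of all probes, 49.0% were higher in this comparison. None of the 29 was called, and 7 passed an unadjusted p of 0.05 by limma, beside 4.27% of all probes. Those 7, picked out after their values were seen, were the transporter Slc10a6 (1.46), the transcription factor Klf15 (1.22), the NF-kB inhibitor Nfkbia (0.98), the clock gene Per1 (0.93), Txnip (0.90), the kinase Map3k6 (0.90) and the transcription factor Klf9 (0.67). The median of the list relative to DMSO was 0.2135 to 0.7658 in the rapamycin arrays, -0.1471 to 0.2084 in the DMSO arrays and -0.264 to 0.07009 in the challenged ones.

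The challenge alone moved 5 of these 29 genes, 2 up and 3 down, with a list median of -0.16. That share is no larger than the 20.5% of all probes called. Angptl4, an inhibitor of lipoprotein lipase, rose by 3.79 (limma adjusted p 0.00437), and Lcn2, an iron-chaperone protein made in inflammation, rose by 2.59 (adjusted p 0.00048). Klf15, which drives fuel use in fasting, fell by 2.28 (adjusted p 0.00416), and Dusp1, a phosphatase that switches off MAP kinases, fell by 1.23 (adjusted p 0.0215). The count was between 3 and 8 when single arrays were left out and 0 with slide as a fixed term.

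Under rapamycin the challenge moved 16 of the 29, 3 up and 13 down, with a median of -0.66, beside 18.9% of all probes called higher and 22.9% called lower. The 16 became 4 with brightness as a covariate and 8 within slide 2. Klf15 was again called lower (limma adjusted p 9.39e-05). Its level was 1.83 ± 0.65 (SD, n = 3) with rapamycin, and with BA + rapamycin 1 of 3 arrays detected it well above background, so the fold is poorly determined. Lcn2 rose by 2.81 and Angptl4 by 2.07 (adjusted p 0.0336). The probe that stands for Fam107a, the third counted as higher, gave 3.03 (adjusted p 0.00659), but a second probe for that gene went the other way (-2.70, adjusted p 0.00348), so the gene has no settled direction. The interaction gave no call on the list, and its median was -0.72.

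**Figure D5:**
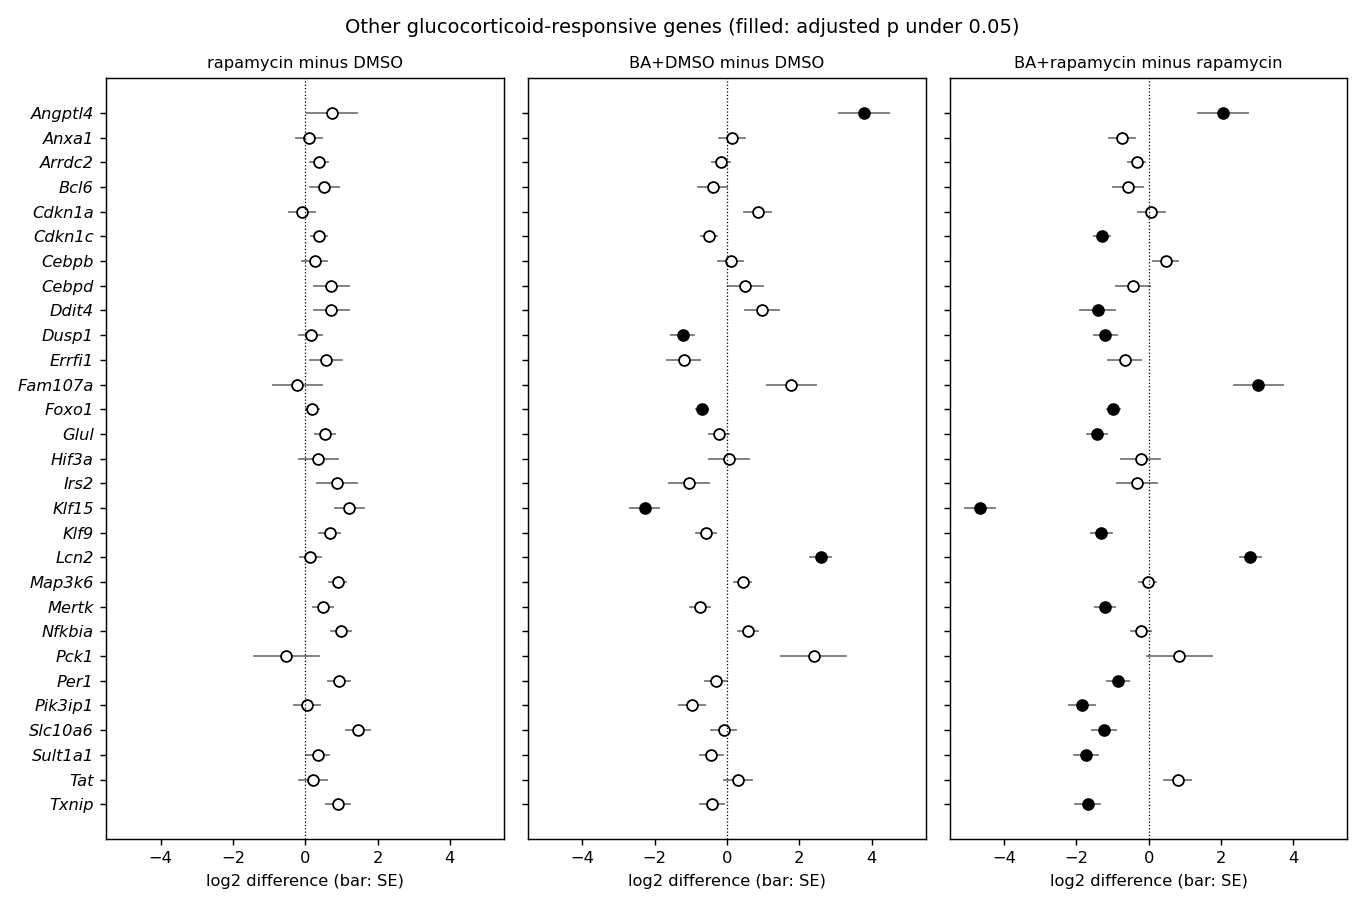
Log2 difference of the 29 tested further glucocorticoid target genes with rapamycin alone, with the challenge and with the challenge under rapamycin, one point per gene with its SE as a bar, filled where the gene was called. With rapamycin alone 26 of 29 lie above 0 and none is filled; with the challenge under rapamycin 3 are called higher and 13 lower.

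The genes of the machinery around the receptor were mostly lower after the challenge. Of 15 Hsp90 system and coregulator genes, the challenge lowered 6 and raised none, with a median of -0.50, beside 10.8% of all probes called lower. The largest were the coactivators Ncoa2 (-1.22) and Ncoa1 (-1.002), the immunophilin Fkbp4 (-0.82), which helps the receptor travel to the nucleus and acts against Fkbp5, and the acetyltransferase Ep300 (-0.71). Under rapamycin the challenge lowered 9 and raised 3, where 22.9% of all probes were called lower and 18.9% higher, among them Ncoa2 (-1.44), Fkbp4 (-1.12) and Ncoa1 (-0.89). The probe that stands for Crebbp was called higher (1.97) and a second probe for it lower (-1.05, adjusted p 0.00317). With rapamycin alone none of the 15 was called or passed an unadjusted p of 0.05, and the median was 0.06.

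Among genes of steroid synthesis and metabolism, 5 of 13 were detected well enough to test. The challenge raised 2 of the 5, where 9.65% of all probes were called higher. Under rapamycin it raised 3 and lowered 1, where 18.9% of all probes were called higher and 22.9% lower. H6pd, which supplies the NADPH that Hsd11b1 consumes, rose by 0.85 with the challenge (limma adjusted p 0.0174) and by 1.16 with the challenge under rapamycin. Its level was 3.05 ± 0.15 with DMSO, 3.10 ± 0.09 with rapamycin, 3.90 ± 0.44 with BA + DMSO and 4.26 ± 0.03 with BA + rapamycin (SD, n = 3 each). Cyp17a1, a steroid hydroxylase, rose by 1.44 with the challenge (adjusted p 0.0137) and by 2.07 under rapamycin. Under rapamycin the challenge also raised the 21-hydroxylase Cyp21a1 (0.95) and lowered the reductase Srd5a1 (-0.94). The enzymes that make corticosterone and aldosterone in the adrenal cortex (Star, Cyp11a1, Hsd3b1, Cyp11b1 and Cyp11b2) and Hsd11b2, which shields Nr3c2 from corticosterone, did not pass the filter on dim signals.

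Of 12 genes reported as mineralocorticoid targets 8 were tested, and the challenge raised 1 and lowered 2, beside 9.65% of all probes called higher and 10.8% lower. Pgf, a placental growth factor, rose by 1.55. The ubiquitin ligase Nedd4l, which Sgk1 restrains, fell by 0.93, with a second probe at -0.67 that was not called (adjusted p 0.185). The sodium channel subunit Scnn1a was called lower too, but 1 of the 3 BA + DMSO arrays detected it well above background, so its fold is poorly determined. Under rapamycin the challenge again called 1 higher and 2 lower of the 8 (Pgf 1.42, Nedd4l -1.08), where 41.7% of all probes were called, and Scnn1a was not well above background on any BA + rapamycin array, which bounds its decrease there to at least 1.02-fold.

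Around the metallothioneins, 3 of 14 other zinc and metal response genes rose with the challenge, beside 9.65% of all probes called higher, namely the brain metallothionein Mt3 (2.19), the haem oxygenase Hmox1 (1.58) and the zinc importer Slc39a8 (1.57). The metal sensor Mtf1, which drives Mt1 and Mt2, was called lower by 1 probe (-0.84), while a second probe gave 0.22 (adjusted p 0.737). Under rapamycin the challenge raised Mt3 (2.60), where 18.9% of all probes were called higher. It lowered 3 of the 14, a share near the 22.9% of all probes called lower. Among the lowered genes was the zinc exporter Slc30a1 (-1.15), whose gene is also an Mtf1 target. With rapamycin alone none was called, and the list median was 0.05.

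Around Pdk4, the genes of fat oxidation and pyruvate dehydrogenase control were mostly lower after the challenge. Of 19, the challenge lowered 7 and raised 1, with a median of -0.70, beside 20.5% of all probes called. Under rapamycin it lowered 11 and raised 2, with a median of -1.002, beside 41.7%. The genes that fell included those for the acyl-CoA thioesterase Acot2, which 1 of the 3 BA + DMSO arrays detected well above background, the heart fatty acid binding protein Fabp3 (-1.52) and the phosphatase Pdp2, which opposes Pdk4 (-1.38), while Ucp3 rose (2.19). Under rapamycin, Pdp2 fell again (-1.94). A second Pdp2 probe gave -0.39 and -0.95 in these comparisons and was called in neither (adjusted p 0.579 and 0.110). With rapamycin alone the list median was -0.10, where Pdk4 itself gave 0.82.

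Markers of other cell types moved with the challenge, and their part in the results above was not tested. Smooth muscle markers were all detected (8 of 8), with a summed signal, in units of the 75th percentile, of 2858 to 3080 with DMSO, 2598 to 3060 with rapamycin, 2460 to 4837 with BA + DMSO and 3484 to 4522 with BA + rapamycin. That sum is carried by the brightest probes. By gene, the challenge lowered Lmod1 (-1.91), and under rapamycin it lowered Lmod1 (-1.89), Des (-1.79) and Myocd (-0.97) and raised Tagln (1.05), with a list median of -0.35. These shares of 1 and 4 in 8 are near those of all probes, 10.8% called lower with the challenge and 41.7% called under rapamycin. Fibroblast markers rose in 3 of 8 cases with the challenge, where 9.65% of all probes were called higher, and in 4 of 8 under rapamycin, where 18.9% were. Endothelial markers rose in 3 of 8 cases with the challenge, beside 9.65% of all probes called higher. Under rapamycin 1 of them rose and 2 fell, a share near the 41.7% of all probes called. Of 9 macrophage markers tested, the challenge raised 8, beside 9.65% of all probes called higher, and under rapamycin 7, beside 18.9%, and the summed signal was 111.8 to 141.5 with DMSO, 120.8 to 144.9 with rapamycin, 192.7 to 494.6 with BA + DMSO and 385.8 to 507.2 with BA + rapamycin. That sum is carried mostly by Itgam. The median of the macrophage markers relative to the DMSO mean was -0.3271 to 0.5604 with DMSO, 0.1965 to 0.5078 with rapamycin, 1.641 to 2.819 with BA + DMSO and 1.83 to 1.967 with BA + rapamycin. With rapamycin alone no marker of these cell types was called. In the rapamycin arrays, however, the median of 7 striated muscle markers relative to DMSO was -0.7981 to -0.4499, against -0.2295 to 0.1102 in the DMSO arrays, with all 7 lower in mean. Endothelial markers were higher in mean in 7 of 8 cases, with a median difference of 0.39. Their part in the higher target gene values of that group was not tested. Of 5 lymphocyte markers tested, 2 rose with the challenge, Cd3e (0.92) and Cd4 (0.89), beside 9.65% of all probes called higher. The same 2 rose under rapamycin (1.36 and 1.08), beside 18.9%. The summed signal of the 5 was 2.95 to 3.442 with DMSO, 2.639 to 4.009 with rapamycin, 4.305 to 7.949 with BA + DMSO and 5.614 to 7.879 with BA + rapamycin. Adipocyte markers (9 of 12 tested) summed to 53.6 to 65.98 with DMSO, 39.9 to 84.1 with rapamycin, 52.8 to 205.7 with BA + DMSO and 29.9 to 224.2 with BA + rapamycin, so the challenged samples varied widely in these markers. Among them Ucp1 was well above background on 0 of 3 DMSO arrays, 3 of 3 BA + DMSO arrays and 1 of 3 arrays in each rapamycin-treated group. It thus passed the filter on dim signals only through the group where it was high. Its call with the challenge (limma adjusted p 0.0143) is therefore no separate support for a difference, and its fold is poorly determined. Cidea fell by 2.61 with the challenge under rapamycin (adjusted p 0.00382), against most of its list. In that comparison 6 of the 9 adipocyte markers were higher in mean, with a median difference of 1.65 and no other call. With the challenge alone 7 of the 9 were higher, with a median of 1.42.

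The sampled segment lies close to the adrenal gland, whose cells make the hormone these receptors bind. Of 13 adrenal markers, 10 were not detected well enough to test, among them Star, Cyp11a1, Cyp11b1 and Cyp11b2, which define the steroid-making cortex. The 3 tested summed to 0.767 to 1.12 with DMSO, 1.04 to 1.197 with rapamycin, 0.9752 to 1.668 with BA + DMSO and 1.46 to 1.58 with BA + rapamycin. The challenge raised 1 of 4 neutrophil markers, Ly6g (1.87), beside 9.65% of all probes called higher, and under rapamycin 1 of 4, Csf3r (1.32), beside 18.9%. Neutrophil markers (4 of 8 tested) were all higher in mean with rapamycin alone, none called, with a median difference of 0.81. Their median relative to the DMSO mean was 0.3286, 1.069 and 0.7326 in rapamycin replicates 1, 2 and 3 and -0.1314 to 0.1637 in the DMSO arrays, and the summed signal, carried mostly by Csf3r, was 201.6 to 241.9 and 205.7 to 257.1. The part of these cells in the target gene values was not tested.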

How the data were processed

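Aortic RNA of 12 mice was hybridised to 1-colour Agilent arrays, 1 mouse per array. Per the file headers the authors extracted the deposited processed signal (an intensity after background subtraction) with Feature Extraction 10.7.1.1, while the submitters' processing notes name version 9.5.1.1. The deposited flags for signals well above background, outlier spots and saturation were used as given by the authors, and the authors' deposited matrix of processed intensity on a linear scale served, after log2, as an alternative. Probe positions are those of mm9 in the file headers' annotation.

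From these, log2 intensity was taken without control and outlier spots, averaged over the spots of a probe, and centred on each array's 75th percentile. Dim probes were left out: 27801 of 55681 remained, those for which some group had, on each of its 3 arrays, a share of 0.5 or more of the spots well above background. limma 3.58.1 in R 4.3.3 fitted 1 mean per group over all 12 arrays, two-sided, with Benjamini-Hochberg adjustment over all probes tested. A gene stands by its tested probe with the highest mean over the arrays. The steps were tested on simulated data. Each array was from a different mouse, and the precision is limited by 3 arrays a group.

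The member genes and all lists were chosen with earlier results of these data known. Every member was described. From each list up to 4 called genes with the largest differences per comparison were named, and exceptions are stated; 1 gene that met this rule is not reported here. Alternatives covered background correction, scaling, filters, slide, title number and title date as blocks, brightness, array weights and leaving out each array. The repeats over the further glucocorticoid targets were added after seeing the data.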

Additional observations from a re-analysis of the deposited data

Results flagged for a closer look

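For Hsd11b1, the effect of the challenge differed in sign between mice without rapamycin (0.98) and mice with it (-0.90). Seen the other way, the effect of rapamycin was 0.93 without the challenge and -0.94 with it. Both statements are the same interaction, -1.87 (SE 0.74), with a limma unadjusted p of 0.0276 and an adjusted p of 0.737, so it did not pass over all probes. The interaction lay between -2.50 and -1.39 when single arrays were left out. DMSO replicate 1 read 2.62, against 1.08 and 0.40 in the other DMSO aortae.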

How the results depend on the processing

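Over 36 gene and comparison results and 987 repeats under other settings, 895 kept their direction and their side of the threshold, 68 lost a call, 10 gained one and 14 changed sign. The sign changes concern values near 0 and 1 case with brightness as a covariate, where Hsd11b1 in the challenge under rapamycin was 0.44. For Fkbp5 in that comparison they were 0.16 with quantile normalization, 0.16 with the deposited matrix, 0.17 with scaling over detected probes, 0.014 with title date as a random block and 0.19 with array weights, and -0.54 to 0.57 over single arrays left out. For Mt1 they were 0.18 with scaling over detected probes, 0.052 both with slide as a fixed term and within slide 2, and -0.35 to 0.29 over single arrays left out.

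With the challenge, 3 of the 10 genes were called, against 0 with slide as a fixed term, with array weights (which did not converge) and under the methods' rule of p and fold, 1 with title number (the replicate number in the sample titles) as a replicate block, with title date as a random block, with brightness as a covariate and with only the 2 groups compared, and 1 to 3 over single arrays left out. With rapamycin alone 0 became 3 (Fkbp5, Tsc22d3 and Sgk1) with array weights, where 5.44% of all probes were called. With rapamycin under challenge the range was 0 to 1 over single arrays left out. With the challenge under rapamycin 6 became 0 with brightness or under the methods' rule, 1 within slide 2 and 3 to 6 over single arrays left out, 3 without BA + rapamycin replicate 1. Title number as a replicate block moved no other count of the 10 genes or of the 29 further targets by more than 1.5 times, while over all probes it moved the count for rapamycin under challenge from 78 to 23, and same-numbered arrays of different groups did not all deviate together (10 pairs, r -0.355 to 0.17, 2 over 0.1), although the consensus correlation within title number, pairs inside a group included, was 0.361. For the 29 further targets, repeats chosen after seeing the data gave 11 calls with the challenge under normexp (23.7% of all probes called), 12 with slide as a random block (36.9%), 0 with slide as a fixed term or array weights and 3 to 8 over single arrays left out, against 5. Under rapamycin 16 became 4 with brightness and 8 within slide 2. The count of 26 higher with rapamycin alone stayed at 24 to 27 over single arrays left out.

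In the challenge under rapamycin, 45.2% of called probes were higher, against 59.2% under normexp, 56.8% with scaling over detected probes, 71.9% with brightness as a covariate and 79.8% with no filter on dim probes, and the all-probe median moved from -0.085 to 0.14 under normexp and 0.85 with no filter. Brightness limits the challenged arrays most: Nr3c2 there is close to background.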

Other observations

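As a description over 12 arrays, the named gene whose level followed Fkbp5 most closely was Map3k6 (Pearson r 0.906), itself a gene that glucocorticoids induce. Tsc22d3 was followed by D7Wsu130e (0.876) and then by Per1 (0.86), the second named after its value was seen. Nr3c1 was followed by 4933407E24Rik (0.99), Zbtb16 by Limd1 (0.886), Sgk1 by Eif3m (0.959), Mt2 by Pip5k1a (0.995) and Pdk4 by Cct4 (0.954). The arrays fall into 4 groups that differ in many probes, and the probes share arrays, scaling and brightness, so such likeness is common.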
